A study of Mus musculus with 6 samples.

Results

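The genes described here are the translation initiation factor and elongation factor genes of the mouse, measured as RNA in immunoprecipitates of the protein PNMA4 from testis. They were chosen by symbol, as every row of the count table whose symbol is Eif with a digit from 1 to 6, or Eef with the digit 1 or 2, followed only by lower-case letters and digits, with at least 1 count in any library. Measured levels were not used in the choice beyond that count. The table held 90 rows with such symbols, of which 76 had a count, among 34610 rows with a count and 57010 rows in all. A filter on low counts, described with the processing, left 60 of the 76 genes for testing among 13413 genes in all.

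PNMA4 is listed as Moap1 in mouse gene tables. It descends from a retrotransposon capsid and belongs to proteins able to form particles. For each library 8 testes from mice 3 months old were lysed together, so that a library is a pool and not a single animal. Particles were enriched over cushions of 25% and 70% sucrose and then by density on iodixanol, and PNMA4 was immunoprecipitated from iodixanol fractions 8 and 9. There were 3 genotypes. The first was wild type, with 3 libraries and the strain C57BL/6J named in the protocol. The second was Pnma4 KO, with 2 libraries. The last was the double knockout of Pnma1 and Pnma4 (Pnma1, Pnma4 DKO), with 1 library, which the submitters treated as the third replicate of the group lacking PNMA4. All libraries of both groups received the same PNMA4 antibody, so the group lacking PNMA4 measures what the procedure recovers without its target. The comparison of wild type with that group asks which RNA is recovered beyond this background, and RNA of the lysate before immunoprecipitation was not analysed here.

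Initiation factors bring the small ribosomal subunit, carrying the initiator transfer RNA, to a messenger RNA and place it at the start codon, and elongation factors then deliver each aminoacyl-transfer RNA and move the ribosome along. The cap-binding complex eIF4F joins the cap-binding protein eIF4E, the helicase eIF4A and the large scaffold eIF4G, while eIF2 carries the initiator transfer RNA and eIF3 holds the parts together on the small subunit. In the testis, where many messages are made long before they are translated, several factors have germ-cell paralogues or are needed for sperm formation, among them the Y-linked eIF2 subunit Eif2s3y and the scaffold Eif4g3.

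Library totals ran from 3138657 to 6367930 counts, and the members took 0.365% to 0.783% of them. Counting error covers reads only, because the reads carry no known molecular identifiers. The library of the double knockout stood apart in composition. Rn18s-rs5, a gene related to 18S ribosomal RNA, took 57.5% of its counts against 27.3% to 36.1% in the other 5 libraries, and its scaling factor (TMM, trimmed mean of M-values) was 0.628 against a highest value of 1.29 in wild-type replicate 2. Levels are therefore given as CPM, which scales a gene's counts to a common library size after TMM. The tissue label was borne out by its markers, since Prm1, Tnp1, Sycp3, Piwil1 and Acrv1 were counted in all libraries at a summed 487 to 570 CPM. Moap1 was at 0 in all 3 libraries lacking PNMA4 and at 3.10 ± 1.17 CPM (SD, n = 3) in wild type, at least 13.6-fold higher against a floor of 3 counts over the combined libraries. Pnma1 was at 0 in the double knockout and at 21.1 ± 2.51 CPM (SD, n = 5) in the other libraries, at least 21.1-fold higher against a floor of 3 counts in that library.

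Promoter entries of RefSeq for GRCm38.p6, the build series the submitters name, held 55 symbols that match the rule, 50 of them tested. A count in these libraries was not required for this match. A window of 30 bases was read around each annotated transcript start, with 10 bases before it and 20 from the start base on. Messages for translation factors and ribosomal proteins are known for a terminal oligopyrimidine tract, a run of C and T at the start of the message that ties their translation to growth signals. The windows below show 5 members listed as such messages, then the X-linked and Y-linked copies of the eIF2 subunit whose ratio is followed later, and then a pair of eIF4G scaffolds for comparison. Capitals mark the longest run of C and T anywhere in each window, before or after the start base, on the transcript strand.
Eef1a1, chr9:78481705-78481734, minus strand: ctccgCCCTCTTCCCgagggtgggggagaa
Eef1b2, chr1:63176821-63176850, plus strand: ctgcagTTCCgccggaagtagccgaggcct
Eef2, chr10:81176621-81176650, plus strand: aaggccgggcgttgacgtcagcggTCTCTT
Eif3f, chr7:108934405-108934434, plus strand: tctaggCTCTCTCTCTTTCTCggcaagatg
Eif4b, chr15:102073763-102073792, plus strand: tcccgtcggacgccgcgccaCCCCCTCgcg
Eif2s3x, chrX:94212632-94212661, minus strand: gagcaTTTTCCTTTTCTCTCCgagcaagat
Eif2s3y, chrY:1010585-1010614, plus strand: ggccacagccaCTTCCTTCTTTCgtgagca
Eif4g1, chr16:20672717-20672746, plus strand: gcgcagctccgCCCTCTgcgccggtcacgt
Eif4g3, chr4:137993445-137993474, plus strand: tccgagcggccgTCCTgccggactgctgga
The run was 15 bases long in Eif3f, 10 in Eef1a1, 7 in Eif4b and 4 in Eef1b2. It was at least 6 in Eef2, where it reached the end of the window. In the sex-linked pair it was 16 bases in Eif2s3x and 12 in Eif2s3y, and in the scaffolds it was 6 in Eif4g1 and 4 in Eif4g3. A run of at least 8 was present in 13 of the 70 windows of symbols matching the rule (18.6%). In the whole table it was present in 3693 of the 32851 windows (11.2%). These counts take a run anywhere in the window, so they do not count tracts at the start of the message. Of the 5 listed messages, the marked run covered the start base in Eef1a1 and Eif3f. It lay wholly before that base in Eef1b2 and wholly after it in Eef2 and Eif4b. Eif4g3 had 2 starts in the entries, and the one shown is the first by position, inside the gene and not at its first base. A run is a description of these letters, and it depends on which start the annotation gives.

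RNA of the translation factors was recovered both with and without PNMA4, with differences centred near 0, and no tested member passed the threshold. A missed threshold does not show that levels were equal. By edgeR's quasi-likelihood test with Benjamini-Hochberg adjustment, 0 of 60 members were called at an adjusted p under 0.05, against 8 of 13413 genes (0.0596%) in the whole table. At an unadjusted p under 0.05 there were 2 of 60, Eef1b2 and Eif2b3, against 2.92% of all genes. DESeq2 called 0 members as well, with 1 at an unadjusted p under 0.05. The lowest adjusted p among members was 1.00. Log2 fold changes of wild type over lacking PNMA4 ran from -0.93 to 0.55 with a median of -0.05, beside a median of 0.01 over all tested genes, and 56 of 60 members lay within 0.5 of 0. Positive values were found for 26 of 60 members, against 52% of all genes. With no scaling factors 53 of 60 were positive, as the median of all genes then moved to 0.31. Without the double knockout library the median was -0.02 over 63 members tested, and 27 of these were positive. Standard errors (SE) on the log2 scale ran from 0.20 to 0.49. Their median was 0.35 for the 15 members under 10 CPM and 0.21 for the 14 members of at least 100 CPM, so the abundant members are measured more closely.

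**Figure D1:**
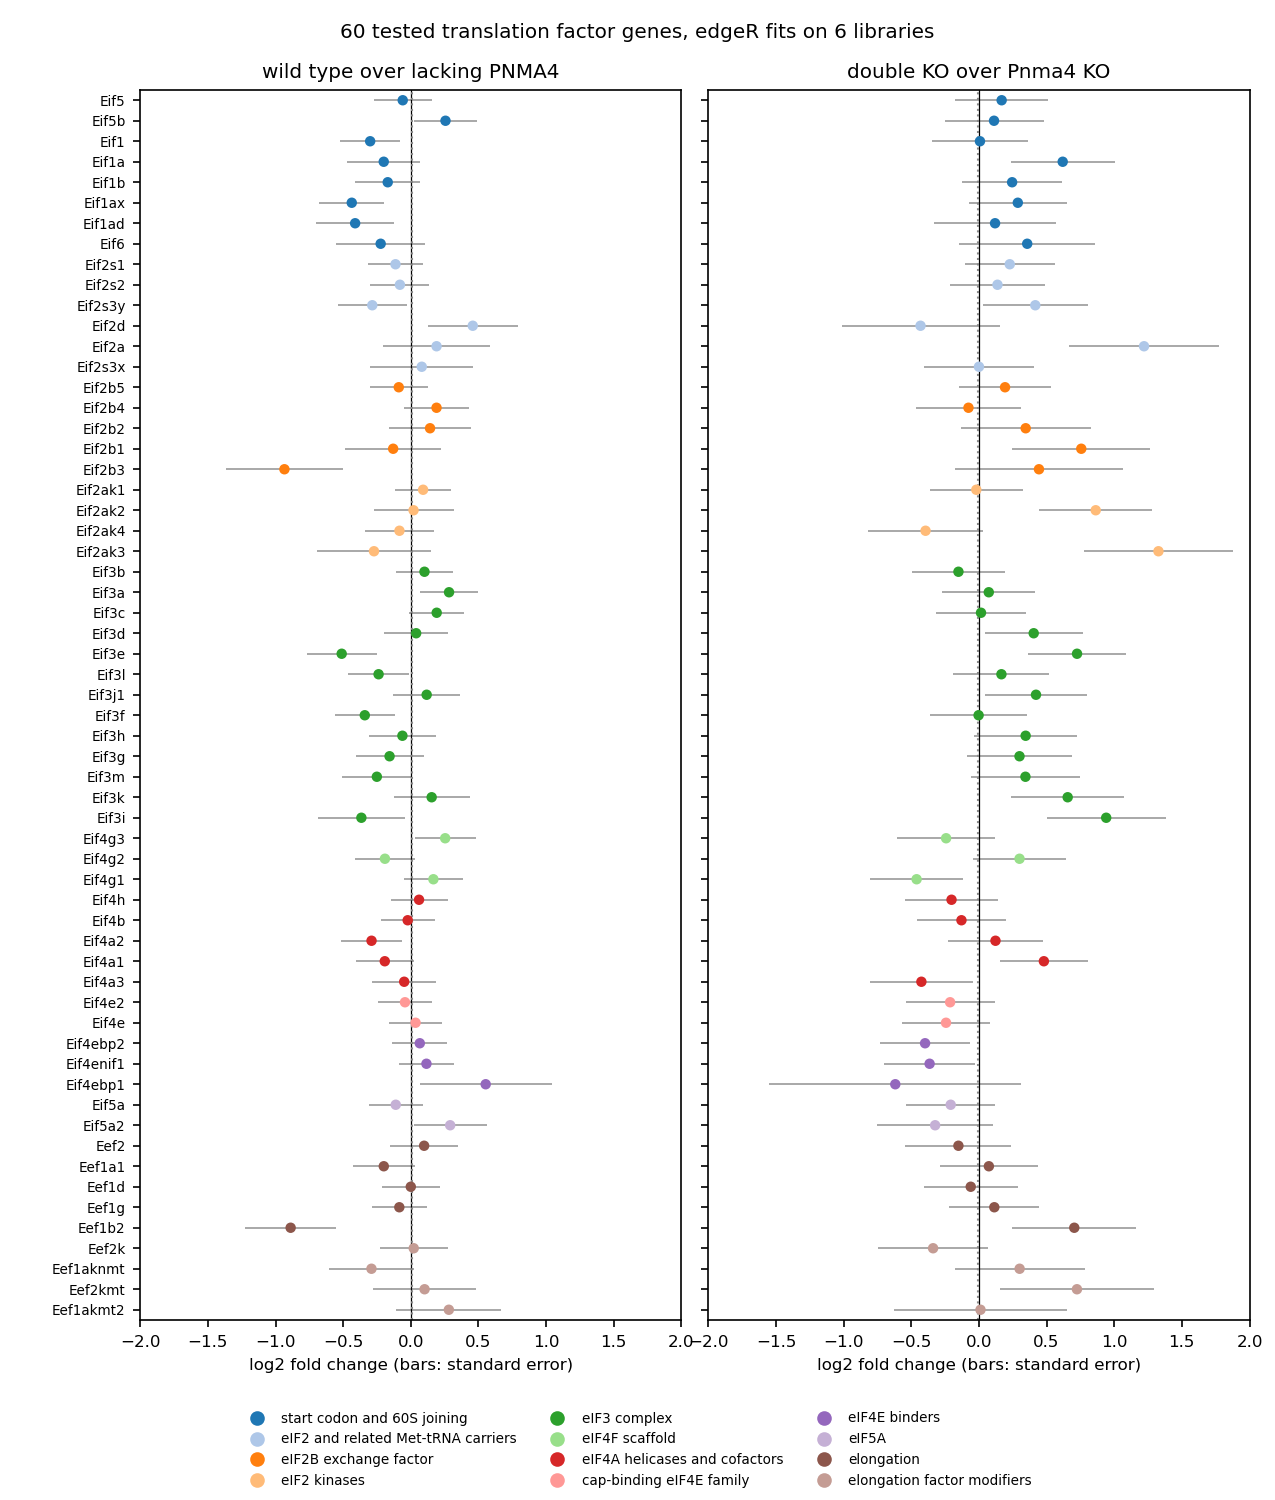
Log2 fold changes of the 60 tested translation factor genes (points, coloured by role) with standard errors (bars), for wild type over lacking PNMA4 on the left and the double knockout over Pnma4 knockout on the right. Dotted lines mark the median of all tested genes. The left values lie between -0.93 and 0.55 and centre near 0, and the right values have wider bars because they rest on 1 library against 2.

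The summed level of the members overlapped between the groups. It was 6348, 6126 and 5466 CPM in wild-type replicates 1 to 3, 5770 and 5983 CPM in the Pnma4 knockouts and 5841 CPM in the double knockout. All 3 values lacking PNMA4 lay inside the range of wild type. The means were 5980 ± 458 and 5865 ± 109 CPM (SD, n = 3 each), with a two-sided exact permutation p of 0.8, where 3 against 3 libraries allow no p below 0.1. The double knockout had the smallest share of raw counts in members and lay inside the range of the others after scaling.

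By share of reads, a few factors made up most of the members' counts in all libraries. The eIF4G scaffolds held 25.4% to 28.5% of member counts, the elongation factors 20.8% to 31.5%, the eIF3 complex 15.1% to 18.4% and the factors of start codon selection and 60S joining 9.53% to 15.3%. Long messages give more reads per molecule, and no transcript lengths were used here, so these are shares of reads and the levels of different genes are not compared as molecules. The elongation share varied most in percentage points, and it did so within groups. It was 31.5% in wild-type replicate 2 and 31.4% in the first Pnma4 knockout, and 20.8% in wild-type replicate 3. The scaffold share was steadier, at 27.4% ± 0.75 in wild type and 26.6% ± 1.67 lacking PNMA4 (SD, n = 3 each).

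**Figure D2:**
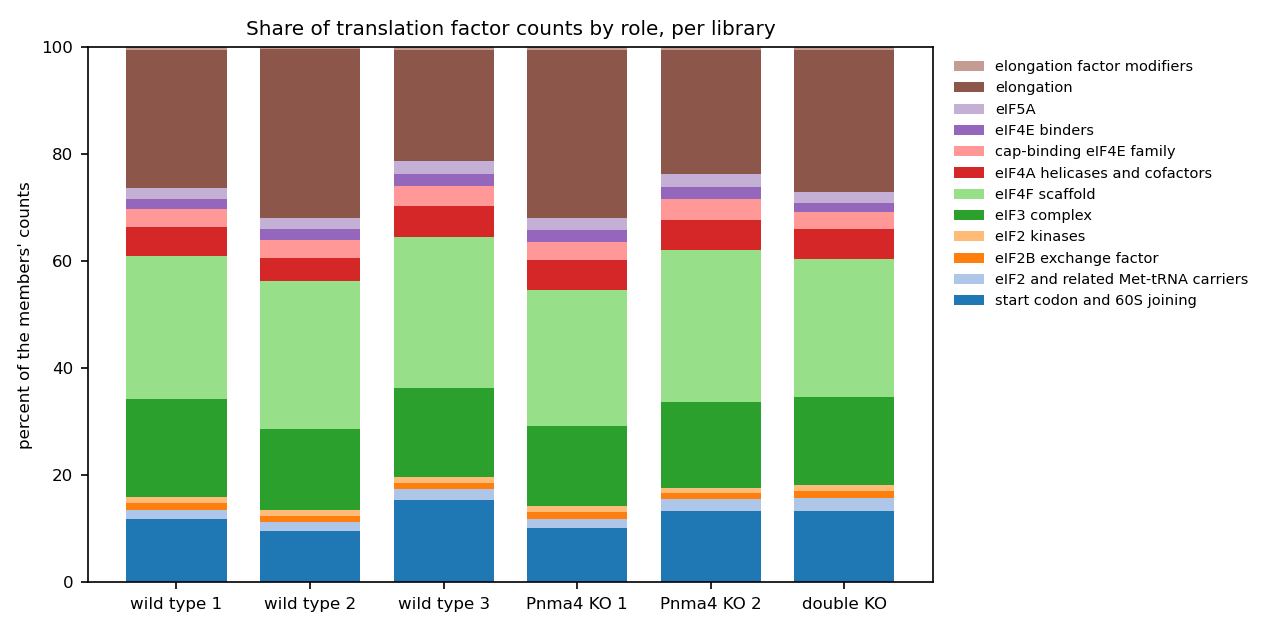
Stacked bars give the percent of all member counts held by each role in each of the 6 libraries, from 0 to 100. The light green eIF4F scaffold band stays between 25.4% and 28.5%, while the brown elongation band ranges from 20.8% to 31.5%.

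Among the eIF4G scaffolds, which bridge the cap-binding protein, the helicase and eIF3, all 3 genes were abundant and none was called. Eif4g3 (chromosome 4, 137991779 to 138207086, GRCm38.p6), the paralogue needed for male meiosis, was at 773, 685 and 560 CPM in wild-type replicates 1 to 3, 503 and 685 CPM in the Pnma4 knockouts and 502 CPM in the double knockout. The groups overlapped (log2 fold change 0.25, SE 0.23). Eif4g1 (chromosome 16, 20672720 to 20692883), the general scaffold, was at 469, 435 and 371 CPM in wild type, 400 and 432 CPM in the Pnma4 knockouts and 302 CPM in the double knockout, its lowest library. The log2 fold change of Eif4g1 was 0.17 (SE 0.22). Eif4g2 (chromosome 7, 111067985 to 111083030), a relative that lacks the part binding eIF4E, ran in the other direction, at 449, 569 and 607 CPM in wild type, 561 and 588 CPM in the Pnma4 knockouts and 708 CPM in the double knockout. Its groups overlapped too, and the log2 fold change was -0.19 (SE 0.22). Within a library the ratio of Eif4g2 to Eif4g1 counts was 0.958, 1.31 and 1.64 in wild type, 1.40 and 1.36 in the Pnma4 knockouts and 2.34 in the double knockout. The double knockout held the highest ratio, and the difference between the groups had an exact permutation p of 0.4.

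The large scaffolds were set against the small eIF3 subunits by ratios of counts within each library, which do not depend on library scaling. The small subunits were those other than Eif3a, Eif3b, Eif3c and the low-count Eif3j2. Counts of Eif4g1, Eif4g2 and Eif4g3 together were 8.78, 9.23 and 9.09 times those of the small subunits in wild type. They were 7.38 and 9.87 times as high in the Pnma4 knockouts and 6.23 times in the double knockout. Wild type was tight at 9.03 ± 0.23 and lay inside the spread of the group lacking PNMA4, at 7.83 ± 1.86 (SD, n = 3 each; exact permutation p = 0.4). The large eIF3 subunits Eif3a, Eif3b and Eif3c, set against the same small subunits, gave 5.06, 4.08 and 4.39 in wild type, 3.35 and 4.54 in the Pnma4 knockouts and 2.92 in the double knockout (4.51 ± 0.50 against 3.60 ± 0.84, exact permutation p = 0.3). In both ratios the double knockout was the lowest of the 6 libraries. Ratios were computed for 10 pairs, and their adjusted p-values over the 10 ran from 0.75 to 0.9.

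**Figure D3:**
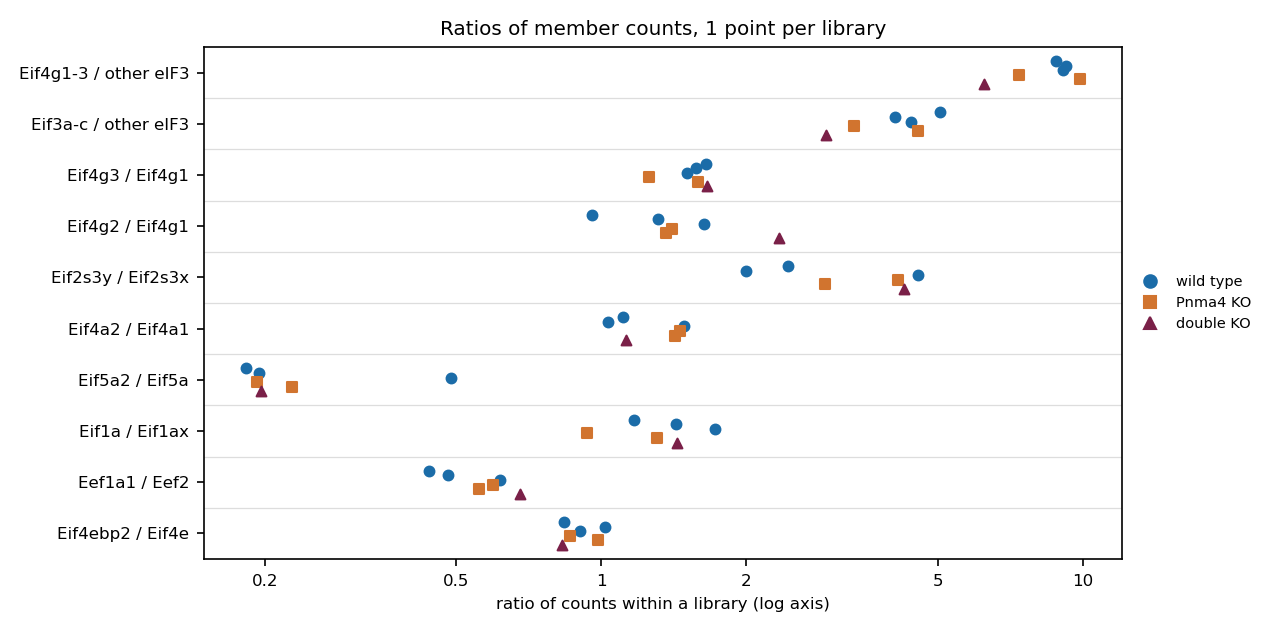
Ratios of counts within each library for 10 pairs of members or sums of members (1 point per library, log axis). Other eIF3 stands for the eIF3 subunits other than Eif3a, Eif3b, Eif3c and Eif3j2. The double knockout is lowest in the top 2 ratios (6.23 and 2.92) and highest in Eif4g2 over Eif4g1 (2.34), and wild-type replicate 3 stands out in Eif5a2 over Eif5a (0.488).

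Within eIF3, the multi-subunit complex that binds the small ribosomal subunit, 13 of 14 members were tested, 6 with positive and 7 with negative log2 fold changes of wild type over lacking PNMA4 (median -0.06), and 0 were called. The large subunits carried most of its reads. Eif3b was at 305 ± 59.4 CPM in wild type and 284 ± 18.5 lacking PNMA4, and Eif3a, the largest subunit, at 299 ± 53.8 and 246 ± 37.7 (SD, n = 3 each). The subunit Eif3e was at 17.6, 18.8 and 27.0 CPM in wild type, 30.1 and 20.7 CPM in the Pnma4 knockouts and 41.5 CPM in the double knockout, for a log2 fold change of -0.51 (SE 0.26). Its groups overlapped through the second Pnma4 knockout. Eif3f, a subunit of the same complex with the long pyrimidine run shown above, was at 19.7, 20.8 and 18.9 CPM in wild type, 27.9 and 22.7 CPM in the Pnma4 knockouts and 25.1 CPM in the double knockout. Its groups did not overlap (log2 fold change -0.34, SE 0.22, unadjusted p = 0.139, edgeR).

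The eIF3 member that differed most in counts was Eif3j2, which the filter on low counts left out. Its product is the loosely bound subunit eIF3j, also encoded by Eif3j1. It had 1, 2 and 3 counts in wild-type replicates 1 to 3, 19 and 23 counts in the Pnma4 knockouts and 0 in the double knockout. Both Pnma4 knockouts were above all other libraries, while the double knockout, which lacks PNMA4 too, had none. A floor of 3 counts in that library is 1.00 CPM, above the wild-type mean of 0.33 CPM. The double knockout and wild type are therefore not ranked. Eif3j2 is named after its values were seen. With no filter, edgeR gave it a log2 fold change of -3.15 (SE 0.63, adjusted p = 0.00151), and 31 of 34610 genes (0.0896%) were then called. Because the gene was singled out for these counts, that p describes it and is not support for a difference. In fits without the double knockout or without a wild-type replicate it passed the filter only through the Pnma4 knockouts, where it is high, so no p-value of those fits is given. In the Pnma4 knockouts it was at 4.66 ± 1.94 CPM (SD, n = 2), at least 4.64-fold higher than in the double knockout against a floor of 3 counts in that library. The paralogue Eif3j1 did not share the pattern, at 27.3, 17.1 and 27.8 CPM in wild type, 16.5 and 22.9 CPM in the Pnma4 knockouts and 26.8 CPM in the double knockout. The paralogues are closely alike in sequence, how reads matching both were counted is not given in the sources used here, and whether this affects Eif3j2 was not tested.

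**Figure D4:**
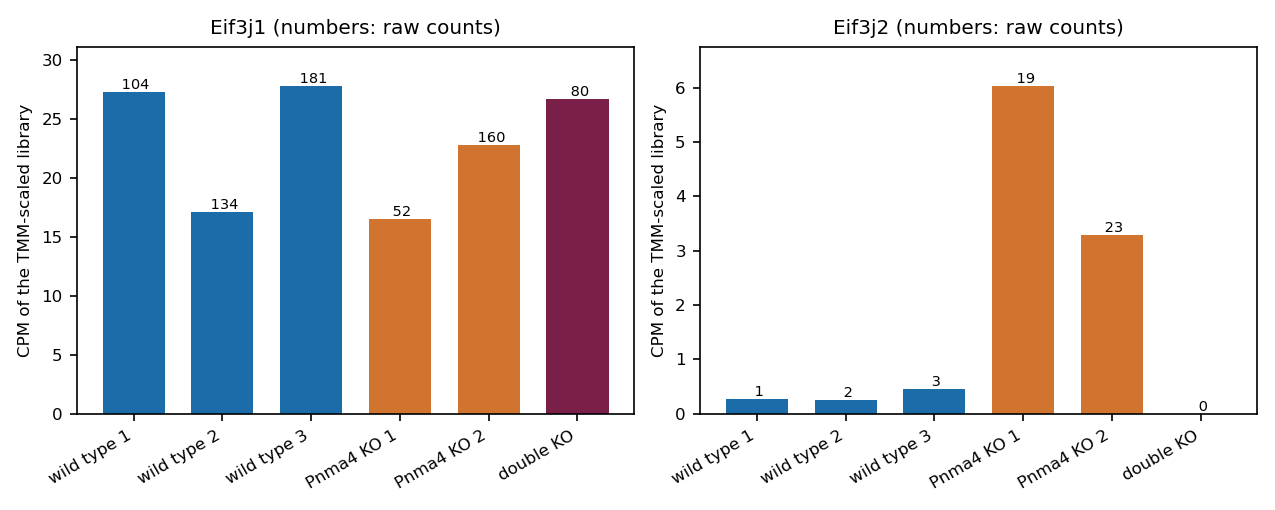
Bars give CPM of the TMM-scaled library for Eif3j1 and Eif3j2 in each library, with raw counts printed above and separate vertical axes that start at 0. Eif3j2 holds 19 and 23 counts in the Pnma4 knockouts and at most 3 in any other library, while Eif3j1 ranges from 16.5 to 27.8 CPM with no such split.

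The factors that select the start codon and join the large subunit had mostly negative values, and none passed the test. Of 8 tested, 7 had negative log2 fold changes of wild type over lacking PNMA4 (median -0.21) and 0 were called. Without wild-type replicate 2 only 4 were negative, and with no scaling factors only 3 were, when the median of all genes stood at 0.31. Eif5, the protein that triggers hydrolysis of GTP on eIF2, was at 349 ± 56.6 CPM in wild type and 364 ± 53.6 lacking PNMA4, and Eif5b, which joins the subunits, was at 244 ± 59.2 and 204 ± 52.7 and was the one positive member (SD, n = 3 each). Eif1, which guards the choice of the start codon, was at 42.8, 31.7 and 55.5 CPM in wild type and between 52.9 and 53.6 CPM in the 3 libraries lacking PNMA4. Wild type thus spanned the other group. Eif1ax, an X-linked gene for eIF1A that holds the scanning complex open, was at 20.5, 14.7 and 24.7 CPM in wild type, 24.1 and 26.1 CPM in the Pnma4 knockouts and 30.8 CPM in the double knockout. It gave a log2 fold change of -0.44 (SE 0.24), and Eif1ad, a gene for a protein with an eIF1A-like domain, gave -0.41 (SE 0.29). The groups overlapped for both.

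Genes of eIF2 and of the other carriers of initiator transfer RNA were divided, with 3 of 6 positive and 0 called. Eif2s3x (chromosome X, 94188709 to 94212651) and Eif2s3y (chromosome Y, 1010562 to 1049134) encode the gamma subunit of eIF2, and the Y copy is needed for spermatogonia to multiply. Eif2s3y was at 11.6, 10.5 and 12.6 CPM in wild type, 10.5 and 14.6 CPM in the Pnma4 knockouts and 17.1 CPM in the double knockout. Eif2s3x was at 4.73, 5.24 and 2.77 CPM in wild type, 2.54 and 5.0 CPM in the Pnma4 knockouts and 4.01 CPM in the double knockout. The Y copy had more counts than the X copy in all 6 libraries. The ratio of Y to X counts was 2.44, 2.00 and 4.56 in wild type, 4.13 and 2.91 in the Pnma4 knockouts and 4.25 in the double knockout, so that the groups overlapped (exact permutation p = 0.4). Eif2s1 and Eif2s2, the alpha and beta subunits, had log2 fold changes of -0.11 (SE 0.21) and -0.08 (SE 0.22). Eif2d, which can deliver transfer RNA without eIF2, was at 6.31, 6.14 and 4.92 CPM in wild type, 4.44 and 4.57 CPM in the Pnma4 knockouts and 3.34 CPM in the double knockout. It was the one tested member whose 3 wild-type libraries all lay above the others, against 3.28% of all genes (log2 fold change 0.46, SE 0.33).

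The exchange factor eIF2B reloads eIF2 with GTP, and 3 of its 5 genes had negative values (median -0.09) with 0 called. Without wild-type replicate 3 only 1 was negative (median 0.10), with no scaling factors likewise 1 (median 0.25), and 2 were negative without the first Pnma4 knockout (median 0.03) or without the double knockout (median 0.15). Eif2b3 (chromosome 4, 117019399 to 117086852), its gamma subunit, was at 2.37, 1.66 and 1.23 CPM in wild type, 2.86 and 3.00 CPM in the Pnma4 knockouts and 4.01 CPM in the double knockout. The groups did not overlap. By edgeR the log2 fold change was -0.93 (SE 0.43, unadjusted p = 0.0403, adjusted p = 1.00), and it rests on 8 to 21 counts per library. Eif2b5, the catalytic subunit, was at 34.4 ± 5.82 CPM in wild type and 36.4 ± 3.12 lacking PNMA4 (SD, n = 3 each). The eIF2 kinases, which shut initiation down under stress by phosphorylating eIF2, had 2 positive and 2 negative values. Eif2ak1, the kinase that senses haem, was at 38.9 ± 5.20 and 36.5 ± 0.58 CPM, and Eif2ak2, the kinase that senses double-stranded RNA, at 11.3 ± 2.91 and 11.3 ± 4.88 CPM.

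Of the helicases and their cofactors, the cap-binding proteins and the eIF4E binders, 0 were called. The helicase gene Eif4a2 was at 49.7, 41.4 and 75.4 CPM in wild type, 68.5 and 63.7 CPM in the Pnma4 knockouts and 71.9 CPM in the double knockout, and wild-type replicate 3 was its highest library. Eif4a1 and Eif4a3, the second of which sits in the exon junction complex, had log2 fold changes of -0.19 (SE 0.21) and -0.05 (SE 0.24). The helicase cofactors Eif4b and Eif4h had -0.02 and 0.06. Eif4e, the cap-binding protein of eIF4F, was at 84.0 ± 4.66 and 81.8 ± 7.74 CPM, and Eif4e2, a relative linked to repression, at 120 ± 5.64 and 124 ± 16.9 CPM (SD, n = 3 each). Both had an SE of 0.20, near the smallest of all members. All 3 tested eIF4E binders, which block or relocate eIF4E, had positive values, and 2 of 3 did without the double knockout library. Eif4ebp2 and Eif4enif1 had 0.07 and 0.12, and Eif4ebp1, at only 2.13 ± 0.64 and 1.33 ± 0.36 CPM, had 0.55 (SE 0.49).

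Eif5a and Eif5a2 encode the factor that carries hypusine and helps ribosomes through difficult peptide bonds. Eif5a was at 111, 105 and 86.8 CPM in wild type, 109 and 119 CPM in the Pnma4 knockouts and 98.6 CPM in the double knockout. Eif5a2 was at 20.2, 20.5 and 42.4 CPM in wild type, 20.9 and 27.1 CPM in the Pnma4 knockouts and 19.4 CPM in the double knockout. Its ratio to Eif5a was 0.488 in wild-type replicate 3, while the remaining libraries gave 0.182 to 0.228. The log2 fold change of Eif5a2 was 0.29 (SE 0.27), and the high value behind it came from that library.

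Among the elongation factors, Eef2, the translocase, had the highest mean CPM of any member. It was at 856, 1102 and 537 CPM in wild type, 916 and 692 CPM in the Pnma4 knockouts and 723 CPM in the double knockout. Wild type alone spanned the range of all libraries, and the log2 fold change was 0.10 (SE 0.25). Eef1a1, which delivers aminoacyl-transfer RNA, was at 376, 530 and 330 CPM in wild type, 547 and 385 CPM in the Pnma4 knockouts and 490 CPM in the double knockout (log2 fold change -0.20, SE 0.23). The isoform Eef1a2, known from muscle and neurons, had 2 counts in all libraries together. Eef1d and Eef1g, subunits of the exchange factor of eEF1A, had log2 fold changes of -0.00 (SE 0.21) and -0.08 (SE 0.20). Eef1b2 (chromosome 1, 63176831 to 63180486), a subunit with the exchange activity of the same factor, had the lowest p of all members. It was at 8.15, 3.07 and 6.45 CPM in wild type, 9.52 and 8.29 CPM in the Pnma4 knockouts and 14.4 CPM in the double knockout. The groups did not overlap, though wild-type replicate 1 and the second Pnma4 knockout lay close together. edgeR gave a log2 fold change of -0.89 (SE 0.34, unadjusted p = 0.0144, adjusted p = 1.00), on 24 to 58 counts per library. With Eif2b3 and Eif3f it made 3 of 60 members whose wild-type libraries all lay below the others (5%), against 3.41% of all genes. Eef2k, the kinase that stops eEF2, was at 13.8 ± 2.43 and 13.4 ± 1.95 CPM (SD, n = 3 each).

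**Figure D5:**
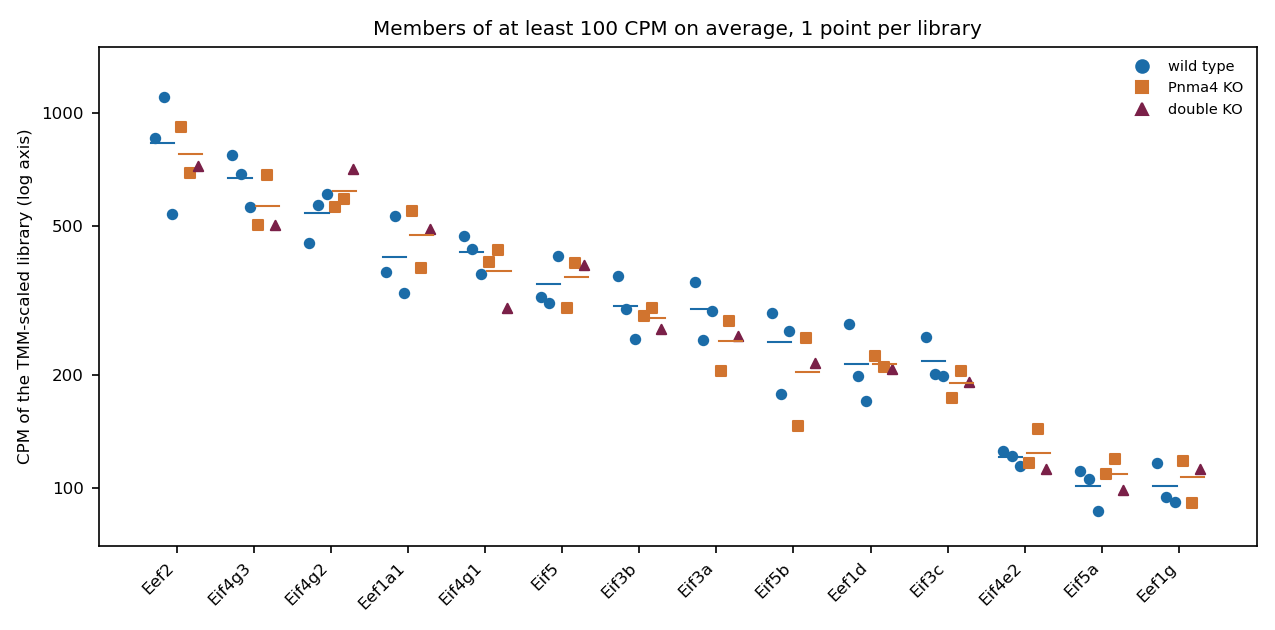
CPM of the TMM-scaled library (log axis) for the 14 members of at least 100 CPM on average, with 1 point per library. Blue lines are wild-type means and orange lines the means of the 3 libraries lacking PNMA4. Points of the groups overlap for all 14 genes, and Eef2 spans 537 to 1102 CPM within wild type alone.

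The members listed as terminal oligopyrimidine messages were Eef1a1, Eef1b2, Eef1d, Eef1g, Eef2, Eif3e, Eif3f, Eif3h and Eif4b. Of these 9, 8 had a negative log2 fold change, the median was -0.08 and 0 were called. Without wild-type replicate 3 the number negative was 5, and with no scaling factors it was 3. The cytosolic ribosomal protein genes, messages of the same kind, had negative values in 65 of 79 tested, and 0 of them were called. Positive values were found for 14, against 52% of all genes. Their median was -0.27, and other settings were not summarised for this list. Their summed level was 947, 699 and 779 CPM in wild type, 871 and 789 CPM in the Pnma4 knockouts and 1227 CPM in the double knockout. The groups overlapped, and the double knockout was the highest library. In the contrast of the double knockout over Pnma4 knockout, described next, 71 of the 79 were positive (median 0.63), against 49.5% of all genes.

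The double knockout was compared with the Pnma4 knockouts in a fit with 3 genotypes, where its 1 library was assumed to vary like the others. By edgeR, 0 of 60 members were called, against 10 of 13413 genes (0.0746%), and 4 members had an unadjusted p under 0.05 against 6.19% of all genes. The median log2 fold change of the double knockout over Pnma4 knockout was 0.12 over members and -0.01 over all genes, and 39 of 60 members (65%) were positive against 49.5% of all genes. With no scaling factors only 5 of 60 members were positive, since the median of all genes then moved to -0.76. Without the first Pnma4 knockout 36 of 62 members (58.1%) were positive, and without the second 34 of 61 (55.7%). DESeq2 called 0 members, with 0 at an unadjusted p under 0.05. The lowest p belonged to Eif2ak3, the kinase of the endoplasmic reticulum stress response, at 6.35 and 2.00 CPM in the Pnma4 knockouts and 9.36 CPM in the double knockout (log2 fold change 1.33, SE 0.55, adjusted p = 0.688, edgeR). Eif2a, a carrier of initiator transfer RNA apart from eIF2, was at 2.86 and 2.86 CPM and 6.69 CPM (log2 fold change 1.22, SE 0.56). Eif3i, a small eIF3 subunit, was at 9.52 and 5.71 CPM and 14.0 CPM (log2 fold change 0.94, SE 0.44). Eif2ak2, the fourth with an unadjusted p under 0.05, was at 6.66 and 10.7 CPM and 16.4 CPM (log2 fold change 0.86, SE 0.42). All wild-type libraries of these 4 genes lay below the double knockout as well.

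By role, 8 of 8 start codon and 60S joining genes and 11 of 13 eIF3 genes had positive values in this contrast, with medians of 0.21 and 0.34, while all 3 eIF4E binders and both tested eIF4E genes were negative. With no scaling factors 0 of 8 and 1 of 13 were positive. Without the first Pnma4 knockout 5 of 8 start codon genes were positive with a median of 0.12, and without the second 6 of 8 were, with a median of 0.34. In the same 2 fits 10 of 13 and 9 of 13 eIF3 genes were positive, with medians of 0.25 and 0.29. The contrast shares its knockout libraries with the comparison of wild type, so the values of one are not independent of the other. Summed levels of several lists of cell type markers were also highest in the same library. The summed level of 8 Leydig cell genes was 424 CPM in the double knockout against 164 to 213 CPM in the other 5 libraries, and that of 8 Sertoli cell genes was 420 against 195 to 279 CPM. The 6 peritubular and vascular genes gave 74.6 against 47.0 to 54.9 CPM. Of the 5 tested, 4 were positive in this contrast, while the vascular gene Vwf was negative (log2 fold change -0.50, SE 0.41). The 6 spermatogonia genes gave 80.3 against 50.5 to 58.3 CPM, with 4 positive and 2 negative. The 5 macrophage genes gave 28.4 against 19.1 to 26.0 CPM, and the 5 blood genes 14.7 against 5.88 to 8.94 CPM. Spermatocyte and spermatid lists, at 2071 and 2500 CPM in the double knockout, lay inside the range of the other 5 libraries. In all these lists every gene had a count in some library. Epididymis genes, of which Lcn9 was at 0 in all libraries, gave 7.55 to 11.3 CPM in wild type and 13.7 to 26.4 CPM lacking PNMA4. Nearly all of this came from Cst8 and Crisp1, since Lcn8, Cst11 and Rnase9 had 1 count each. Crisp1, a secreted protein of the epididymis, was called lower in wild type (log2 fold change -3.57, SE 0.56, adjusted p = 0.00244, edgeR). The part of these cells in the members' values was not tested. Levels here are of RNA recovered by the procedure. More cells of a type, more RNA per cell and more recovery of their RNA cannot be told apart in these libraries.

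Members also varied within wild type. Between wild-type replicates 2 and 3, 18 of 60 members (30%) were over 1.5-fold apart, against 31.1% of all genes. Eef2 was 2.05 times and Eef1a1 1.60 times as high in replicate 2, as were Eif2s3x (1.90), Eif2b1 (1.78) and Eif3h (1.64). The other 13 were lower in replicate 2, among them Eef1b2, Eif5a2, Eif1a, Eif4a2, Eif1 and Eif1ax. The label of both is the same, but their composition differed. The gene Lars2 took 0.75% of counts in replicate 2, 7.07% in replicate 3 and 4.34% to 10.8% in the remaining libraries. In replicates 2 and 3 Rn18s-rs5 took 27.3% and 33.3%, and the TMM factors were 1.29 and 1.08. What set these replicates apart was not tested.

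Members left untested were low in all or most libraries. Apart from Eif3j2, 15 such genes had 1 to 52 counts over all 6 libraries. Eif4e3, a divergent cap-binding protein, had 52 and Eef1e1, a protein of the multisynthetase complex, had 51. Eif4e1b, an oocyte relative of eIF4E, had 10, and 9 of the genes had 1 or 2. Eif2c5, whose symbol is an older style of name for Argonaute genes and not a translation factor, had 2. Of the numbered copies of Eif1ad, 5 had a count, 8 in all, and 12 had none. Eif4a3l1 and Eef1ece2 were also at 0 in all libraries.

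Genes that work beside these factors were read from 4 further lists, with 0 called in each. Termination and recycling genes had 4 positive and 5 negative values of 9 tested, and poly(A)-binding proteins and their partners had 4 positive and 3 negative. Pabpc1, the poly(A)-binding protein that contacts eIF4G, was at 1737, 2024 and 1526 CPM in wild type, 1511 and 1786 CPM in the Pnma4 knockouts and 1512 CPM in the double knockout (log2 fold change 0.14, SE 0.23). Among 9 tested helicases and initiation helpers 4 were positive, and Larp1, which holds terminal oligopyrimidine messages, was at 822 ± 101 CPM in wild type and 732 ± 72.2 CPM lacking PNMA4 (SD, n = 3 each). Regulators of eIF2, eIF4E, eEF2 and hypusine had 7 positive and 6 negative values, with Mtor, the growth kinase, at 505 ± 112 and 456 ± 44.4 CPM. In 3 of these lists, 1 gene of the 9, 9 and 13 tested had all wild-type libraries above the others, against 3.28% of all genes. They were Pelo, which rescues stalled ribosomes, Dhx29, a helicase of scanning, and Rptor, the partner of Mtor, with log2 fold changes of 0.60 (SE 0.39), 0.18 (SE 0.20) and 0.30 (SE 0.21).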

How the data were processed

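The authors deposited 1 table of whole-number raw counts per gene for 6 libraries, which was analysed without change. The tools named by the submitters' processing notes were STAR 2.5.2b, bcl2fastq 2.20, Subread, featureCounts and DESeq2, with the build GRCm38, and the sources used here do not give their settings. Counts were tested in R 4.3.3 with edgeR 4.0.16 (filterByExpr at min.count 10 and min.total.count 15, TMM factors, quasi-likelihood F test, Benjamini-Hochberg adjustment over all 13413 tested genes at 0.05). The step was tested on simulated data. P-values of wild type over lacking PNMA4 measure the spread between 3 libraries per group, which the series' design text calls biological replicates. The group lacking PNMA4 joins Pnma4 knockouts and the double knockout, so its spread includes any difference between these genotypes. For the double knockout over Pnma4 knockout, the spread is pooled over all genotypes. Chi-square values per gene between libraries were at least 8.60, so no library repeated another.

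The members and gene lists were chosen with earlier results of these data known. Members named were the eIF4G and paralogue sets, the 2 most abundant per role, the 6 of lowest p in each contrast and those whose groups did not overlap. The planned level per coding length was not run, and the most abundant were ranked by CPM in its place. Other genes named were chosen after their values were seen. Of the 90 symbols matching the rule, with or without a count, the 72 found in RefSeq GRCm38.p6 gave the coordinates. DESeq2 1.42.0, other scalings and filters, a replicate block and leaving out each library were the alternatives.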

Additional observations from a re-analysis of the deposited data

How the results depend on the processing

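Calls and medians were recomputed with DESeq2, RLE factors, no scaling factors, no filter, a stricter filter, a replicate block and each library left out. With no scaling factors the members' median became 0.25 for wild type over lacking PNMA4 and -0.63 for the double knockout over Pnma4 knockout, beside 0.31 and -0.76 for all genes, and the difference in summed level became 1384 CPM in place of 115. Without wild-type replicate 1 that difference was -68.6 CPM. With no filter 1 member, Eif3j2, was called in each comparison. Leaving out 1 library gave 0 to 1 members called in the first comparison, the 1 being Eif3j2 without lacking PNMA4 replicate 3, the double knockout. Eif3j2 passed the filter there only through the Pnma4 knockouts, where it is high, so this call is no support. Of 928 values of named genes under these settings, 0 reversed, counting a direction only where a log2 fold change exceeded its standard error. A value smaller than its standard error could not count as reversed, so this does not show that directions held. For wild type over lacking PNMA4, Eif4g2 went from -0.19 in the main fit to 0.15 with no scaling factors. Over all genes, 8 were called in the first comparison, against 31 with no filter, 2 with the stricter filter and 18 without the double knockout. In the second, 10 were called, against 201 with no scaling factors, 31 with no filter, 16 with DESeq2, 22 without wild-type replicate 2, 35 without wild-type replicate 3 and 18 without the first Pnma4 knockout. Replicate numbers did not pair the samples (correlations of same-numbered deviations 0.04, -0.06 and 0.08, and not every sample correlated best with its own number). With the number as a block 0 members were called and the median was -0.05. Level per coding length was not run. Depth limits the 15 members under 10 CPM most.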
